A study of Homo sapiens with 24 samples.

Results

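The aminoacyl-tRNA synthetases and the scaffold proteins of their complex were described in A375 cells, an established human melanoma line, that overexpressed the long noncoding RNA SLNCR or carried an empty vector. The genes were taken by symbol: cytosolic and mitochondrial synthetase genes that match a pattern of names, plus AIMP1, AIMP2 and EEF1E1. The pattern does not take in TARS3 (TARSL2), which was placed in a list of synthetase-like genes. The rule found 40 genes of the 28008 in the batch 1 table and 40 of the 60221 in the batch 2 table. They were 20 cytosolic enzymes or subunits, 17 mitochondrial enzymes and 3 scaffold genes, and all 40 passed the filter on low counts in both batches. The tables use older symbols (SARS for SARS1, and so on), which are kept here.

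The 24 libraries form 8 groups of 3 biological replicates, in 2 batches named in the labels. Batch 1 holds SLNCR without triplex-forming region 1 (ΔTFR1), SLNCR without region 2 (ΔTFR2), full-length SLNCR (FL) and the vector backbone. Batch 2 holds SLNCR without region 4 (ΔTFR4), SLNCR without region 5 (ΔTFR5), FL and the vector backbone. All groups, the vector controls included, were transfected with a pcDNA3.1 plasmid that carries puromycin resistance and a CAG promoter, and were kept for 48 h in 2 µg/mL puromycin. The design asks which genes depend on the triplex-forming regions, which are segments thought to pair with duplex DNA. The line is labelled epithelial. Of the lineage markers, SOX10 lay at 43.9 to 77.9 CPM (counts scaled to library size) and MITF at 55.8 to 198 CPM over the batch 2 libraries. PAX3 lay at 12.4 to 17.5, MIA at 8.67 to 14.2 and VIM at 2200 to 3770 CPM. The pigment enzyme gene TYR was at or near 0, and DCT, PMEL, MLANA, TYRP1 and S100B did not exceed 2.07 CPM. The epithelial marker EPCAM did not exceed 0.741 CPM, while KRT14 reached 4.72, CDH1 5.01 and KRT5 5.31 CPM. The blood marker PTPRC had 2.79 CPM in FL replicate 1 of batch 2 and at most 0.1135 in the other libraries of that batch. In batch 1, SOX10 lay at 10.9 to 17.2, MITF at 74.4 to 101, PAX3 at 11.7 to 14.4 and VIM at 2790 to 3580 CPM. There MIA did not exceed 0.231 CPM, and S100B was 0. Batch 1 libraries summed to between 8627449 and 10789211 counts, and those of batch 2 to between 24810226 and 33063445. The 2 tables were made in different ways and are treated apart.

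Each synthetase joins an amino acid to its transfer RNA, the step that sets the genetic code, and cells keep a cytosolic set and a mitochondrial set, all encoded in the nucleus. GARS and KARS serve both compartments, and glutaminyl-tRNA in human mitochondria is made by way of EARS2 and an amidotransferase. Several cytosolic enzymes sit in a large complex held together by AIMP1, AIMP2 and EEF1E1. When amino acids run short, uncharged tRNA activates the kinase GCN2 (EIF2AK4), which phosphorylates eIF2 alpha. Translation of the factor ATF4 then goes up, and ATF4 binds C/EBP-ATF response elements (CARE, core TGATGCAA) in genes of amino acid supply and in many cytosolic synthetase genes.

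Promoter sequences are shown because the letters of the ATF4 element occurred in many cytosolic and few mitochondrial genes. In RefSeq windows of GRCh38.p14, from 250 bases before to 50 after the annotated start, 33 of the 40 genes had an entry. The letters TGATGNAA, searched on both strands, lay in the promoters of 7 of 16 cytosolic, 1 of 14 mitochondrial and 0 of 3 scaffold genes. Some genes have several windows: by window it was 7 of 21 cytosolic and 1 of 18 mitochondrial, against 3.62% of all 35097. The stricter TGATGCAA, contained in the first motif, lay in 6 of 21 cytosolic and 0 of 18 mitochondrial windows, against 0.866% of all windows. The palindrome CACGTG, the E-box of MYC and related factors, lay in 1 of 21 cytosolic and 4 of 18 mitochondrial windows, against 7.25% of all windows. The matches are given 5′ to 3′ on the gene's strand with the motif or its reverse complement in capitals, cut to the stretch around the site:
AARS: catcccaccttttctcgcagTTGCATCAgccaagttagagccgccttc
CARS: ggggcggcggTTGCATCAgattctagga
GARS: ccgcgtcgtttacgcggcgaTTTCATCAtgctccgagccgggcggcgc
IARS: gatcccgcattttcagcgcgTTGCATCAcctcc
MARS: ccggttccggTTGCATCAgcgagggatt
NARS: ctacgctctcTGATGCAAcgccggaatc
TARS: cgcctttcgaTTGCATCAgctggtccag
YARS2: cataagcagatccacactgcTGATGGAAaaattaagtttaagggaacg
These stretches lie at chr16:70289666-70289713 (AARS, minus strand), chr11:3057408-3057435 (CARS, minus), chr7:30594825-30594872 (GARS, plus), chr9:92293698-92293730 (IARS, minus), chr12:57488054-57488081 (MARS, plus), chr18:57621805-57621832 (NARS, minus), chr5:33440957-33440984 (TARS, plus) and chr12:32756067-32756114 (YARS2, minus). Counted with the first transcribed base as 0, the motif began at -187 in AARS, -33 in GARS, -13 in IARS, -4 in MARS, -2 in CARS, 2 in TARS and 14 in NARS. In YARS2, the gene of the mitochondrial tyrosine enzyme, it began at -197 and held G in place of the C of the strict form. A match is a run of letters and not a measured binding site.

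In the empty vector cells, the cytosolic enzymes were the more abundant set per transcript length. The median level was 81.3 CPM per kilobase for cytosolic and 11.6 for mitochondrial genes in batch 2, and 77.6 for cytosolic and 15.7 for mitochondrial genes in batch 1. In batch 2, GARS was the highest at 155 and FARSB, the beta subunit of the phenylalanine enzyme, the lowest cytosolic gene at 17.2. The mitochondrial set ran from 5.2 (FARS2) to 63.5 (IARS2) CPM per kilobase in batch 2.

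The largest differences were in batch 2, between the cells with ΔTFR4 and those with empty vector. Of the 20 cytosolic genes, 8 were higher and 1 lower in ΔTFR4 cells, whereas 0 of the 17 mitochondrial genes were higher and 5 were lower. Among the scaffold genes, 1 of 3 was lower. Calls rest on the quasi-likelihood test of edgeR, adjusted over all genes, with 0.05 as the threshold. Of all 18763 genes tested, 23.9% were called in this comparison, 12.5% as higher and 11.4% as lower. The median log2 fold change was 0.31 for cytosolic and -0.29 for mitochondrial genes, beside 0.02 for all genes. In bulk RNA, a change in how many cells express a gene and a change in RNA per cell cannot be told apart.

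SARS, the serine enzyme, differed most. It had 394, 365 and 349 CPM in ΔTFR4 libraries, 293, 315 and 272 in ΔTFR5 libraries, 271, 329 and 164 in FL libraries, and 159, 145 and 143 in empty vector libraries. Every deletion library lay above every empty vector library, and FL replicate 3 lay next to the empty vector. SARS was 1.31 ± 0.19 higher on the log2 scale (± SE) with ΔTFR4 than with empty vector, a fold of 2.48 (edgeR adjusted p = 0.00106). WARS, the tryptophan enzyme, had 530, 532 and 465 CPM with ΔTFR4, 420, 432 and 372 with ΔTFR5, 454, 484 and 244 with FL, and 255, 238 and 237 with empty vector. Its ΔTFR4 and ΔTFR5 libraries did not overlap the empty vector, and FL replicate 3 lay within the range of the empty vector libraries. Its log2 fold change with ΔTFR4 was 1.06 ± 0.2 (edgeR adjusted p = 0.00309).

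CARS, the cysteine enzyme, carries the strict element at its start site. It had 187, 187 and 181 CPM with ΔTFR4, 169, 177 and 168 with ΔTFR5, 146, 199 and 116 with FL, and 114, 105 and 105 with empty vector. CARS was 0.78 ± 0.16 higher with ΔTFR4 than with empty vector (edgeR adjusted p = 0.00424), with no overlap of the libraries. AARS, the alanine enzyme with the element at -187, had 707, 732 and 709 CPM with ΔTFR4, 570, 668 and 588 with ΔTFR5, 522, 716 and 462 with FL, and 446, 420 and 437 with empty vector. All 3 SLNCR groups lay above the empty vector libraries in AARS. Its log2 fold change with ΔTFR4 was 0.72 ± 0.15 (edgeR adjusted p = 0.00443).

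LARS, the leucine enzyme that also senses leucine for mTORC1, had 361, 369 and 333 CPM with ΔTFR4, 325, 342 and 318 with ΔTFR5, 312, 310 and 237 with FL, and 221, 221 and 217 with empty vector. LARS was 0.69 ± 0.12 higher with ΔTFR4 (edgeR adjusted p = 0.00205). IARS, the isoleucine enzyme, had 839, 825 and 785 CPM with ΔTFR4, 800.2, 770.3 and 863 with ΔTFR5, 868, 759 and 588 with FL, and 575, 549 and 527 with empty vector. No SLNCR library of IARS fell below the empty vector libraries, and the log2 fold change with ΔTFR4 was 0.57 ± 0.13 (edgeR adjusted p = 0.0091). GARS (0.6), the glycine enzyme, and YARS (0.52), the tyrosine enzyme, were also called as higher. GARS held its call in 2 and YARS in 3 of 12 fits with 1 library left out.

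**Figure D1:**
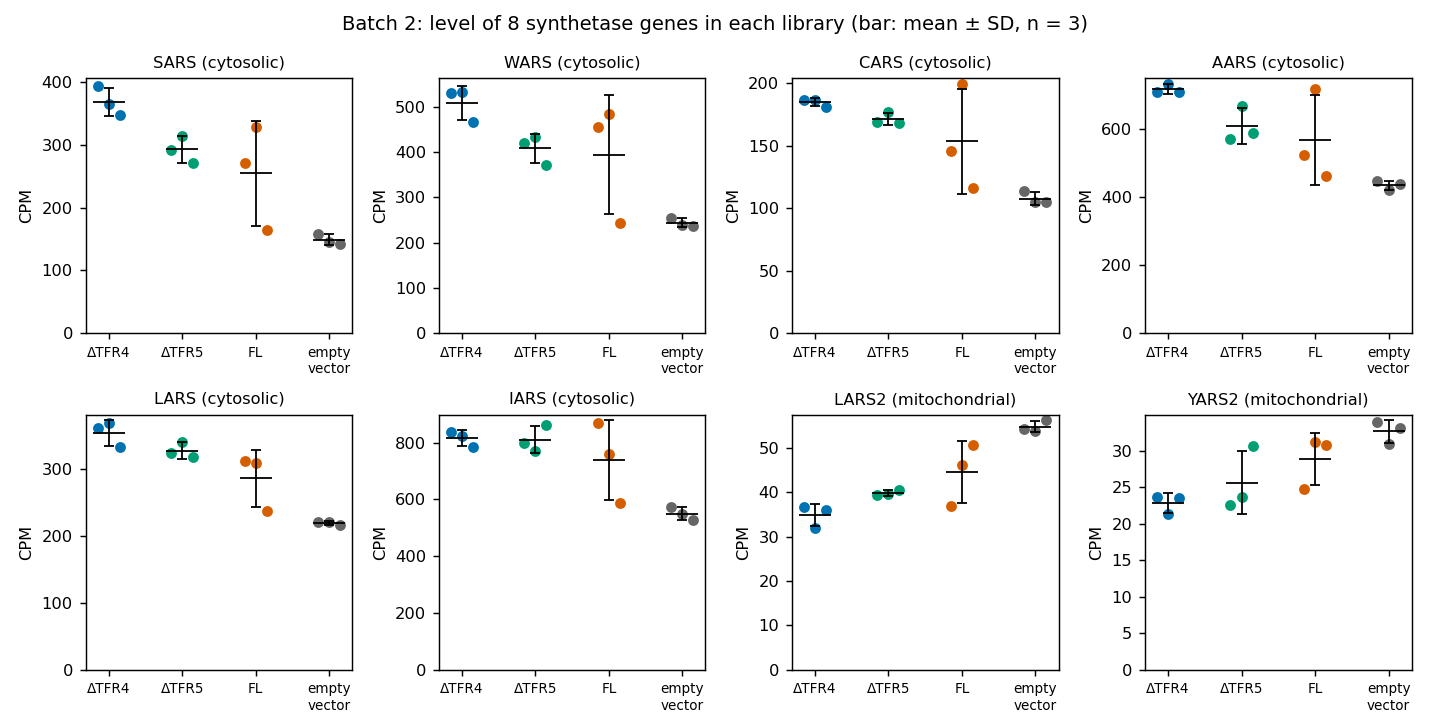
Level in CPM (vertical axis, from 0) of 6 cytosolic and 2 mitochondrial synthetase genes in each batch 2 library, by group; points are libraries and bars the mean ± SD of 3. The cytosolic genes sit higher in ΔTFR4 and ΔTFR5 than in empty vector, LARS2 and YARS2 lower. The FL libraries spread widely in the cytosolic genes, and in CARS and IARS 1 FL library lies above every ΔTFR4 library.

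Against the direction of most cytosolic enzymes, RARS, the arginine enzyme, had 207, 182 and 174 CPM with ΔTFR4 and 183, 175 and 196 with ΔTFR5, against 250.1, 240 and 236 with empty vector. The deletion libraries did not overlap the empty vector libraries. RARS was lower by a log2 fold change of -0.37 ± 0.11 with ΔTFR4 (edgeR adjusted p = 0.0254) and of -0.39 ± 0.11 with ΔTFR5 (edgeR adjusted p = 0.0387). FARSA, the alpha subunit of the phenylalanine enzyme, had the lowest cytosolic estimate, -0.45 ± 0.24 with ΔTFR4 (edgeR adjusted p = 0.187). Of the 8 cytosolic enzyme genes of the multi-synthetase complex (EPRS, IARS, LARS, MARS, QARS, RARS, KARS and DARS), 2 were higher and 1 lower with ΔTFR4, with a median log2 fold change of 0.26. Of the other 12 cytosolic genes, 6 were higher and 0 lower, with a median of 0.4.

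The mitochondrial genes called were lower in ΔTFR4 cells. LARS2, the mitochondrial leucine enzyme, had 36.8, 32.1 and 36 CPM with ΔTFR4, 39.4, 39.6 and 40.7 with ΔTFR5, 37, 46.2 and 50.7 with FL, and 54.4, 53.8 and 56.2 with empty vector. The leucine enzymes went opposite ways, with LARS higher and LARS2 lower by -0.65 ± 0.13 (edgeR adjusted p = 0.00351). YARS2 was lower by -0.52 ± 0.14 (edgeR adjusted p = 0.0203), with 23.7, 21.3 and 23.6 CPM with ΔTFR4 against 34, 30.9 and 33.1 with empty vector. IARS2 (-0.39), the isoleucine enzyme, and EARS2 (-0.35), the glutamate enzyme, were also called as lower. PARS2, the proline enzyme, had the highest mitochondrial estimate, 0.23 ± 0.13 (edgeR adjusted p = 0.226).

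Of the scaffold genes, EEF1E1 had 18.5, 16.1 and 17.9 CPM with ΔTFR4 against 25.4, 21.8 and 23.9 with empty vector, a log2 fold change of -0.44 ± 0.15 (edgeR adjusted p = 0.046). AIMP2 had 42.2, 47.8 and 42.7 CPM with ΔTFR5 against 62.5, 59.3 and 67.8 with empty vector, a log2 fold change of -0.52 ± 0.13 (edgeR adjusted p = 0.028), and was not called with ΔTFR4 (-0.21). AIMP1 differed by 0.04 with ΔTFR4 and -0.06 with ΔTFR5, and its libraries overlapped those of the empty vector.

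With ΔTFR5 against empty vector, 5 cytosolic genes were higher and 1 lower, 0 mitochondrial genes were higher and 1 lower, and 1 scaffold gene was lower. Of all genes, 10.2% were called in this comparison, 5.48% as higher and 4.68% as lower. SARS was higher by 0.98 ± 0.19 (edgeR adjusted p = 0.0092), WARS by 0.75 ± 0.2 (0.0318), CARS by 0.67 ± 0.16 (0.0183), LARS by 0.58 ± 0.12 (0.0106) and IARS by 0.56 ± 0.13 (0.0202). LARS2 was lower by -0.46 ± 0.12 (edgeR adjusted p = 0.036). The median log2 fold change was 0.2 for cytosolic and -0.21 for mitochondrial genes. ΔTFR4 and ΔTFR5 were set against the same empty vector libraries, so their values are not independent of each other.

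**Figure D2:**
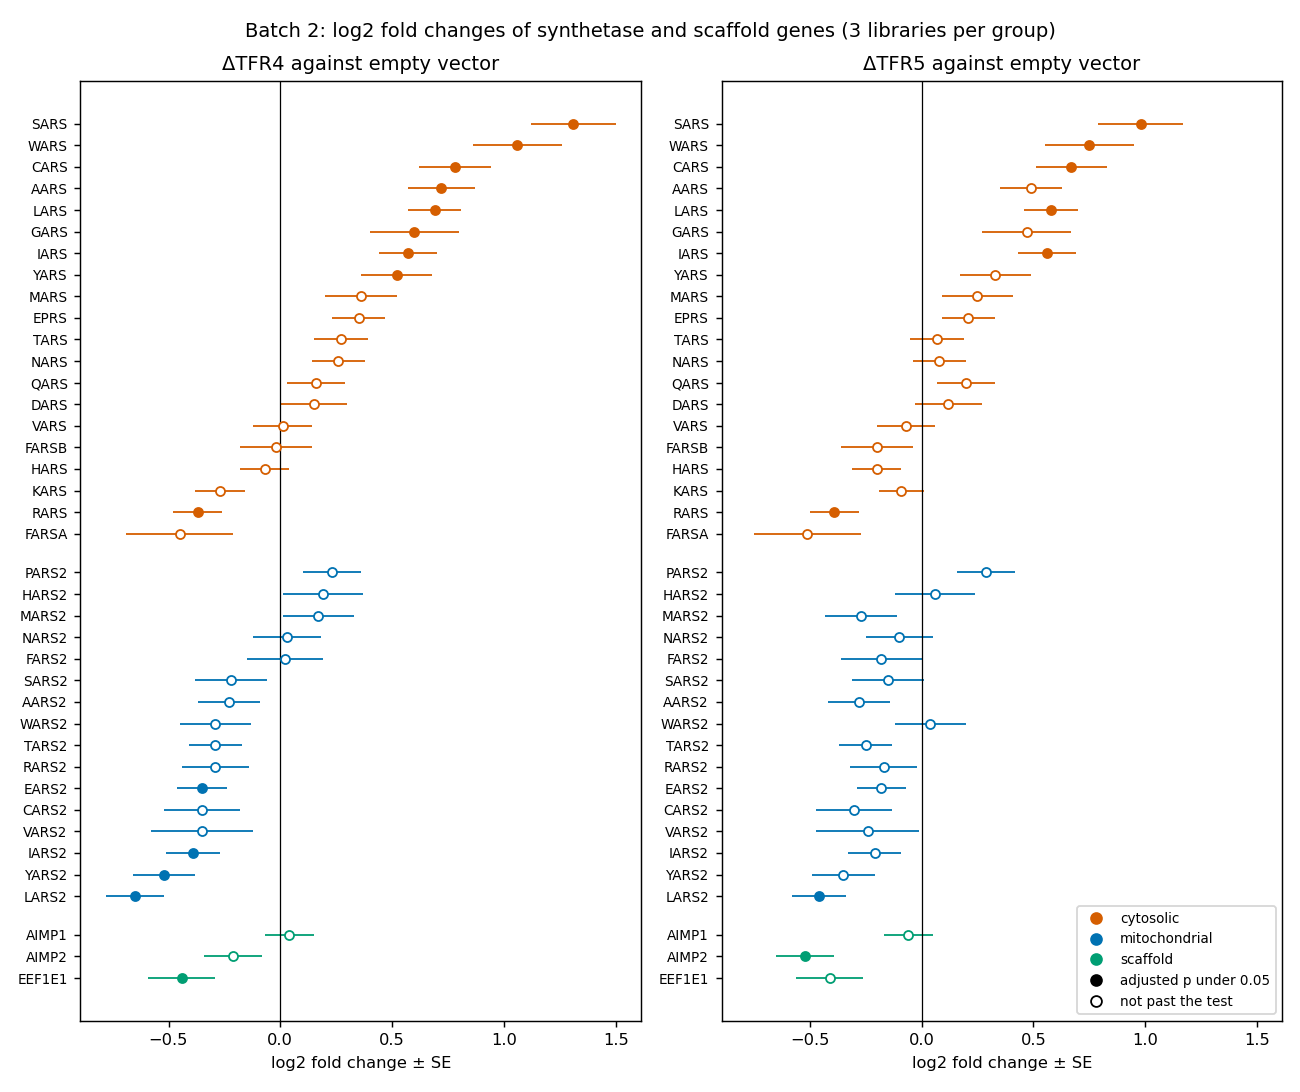
Log2 fold change ± SE (horizontal axis) of the synthetase and scaffold genes named on the vertical axis for ΔTFR4 (left) and ΔTFR5 (right) against empty vector in batch 2, coloured by class and ordered by the ΔTFR4 value; filled points passed an adjusted p of 0.05. Filled cytosolic points lie to the right of 0 except RARS, and filled mitochondrial points to the left.

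The number of called genes rested on the libraries and the model. With ΔTFR4, leaving out 1 library gave 8 (without empty vector replicate 1 or 3, or ΔTFR4 replicate 2 or 3), 9 (without empty vector replicate 2 or ΔTFR4 replicate 1), 10, 12 or 13 (without ΔTFR5 replicate 1, 2 or 3), and 23, 16 or 17 (without FL replicate 1, 2 or 3) calls, and the fit of those 2 groups alone called 29. Each of the 6 fits without an empty vector or ΔTFR4 library made 6 higher calls, against 8 with all libraries, and 2 or 3 lower calls, against 7. With no filter on low counts there were 8 higher and 3 lower calls. The shares of all genes called in these alternative fits are not given here. SARS, WARS, CARS, AARS, LARS, IARS and LARS2 kept their calls in each of the 12 fits that left out a library. Of the genes called as lower, RARS and YARS2 held their calls in 7 of the 12, IARS2 and EARS2 in 5 and EEF1E1 in 4. With ΔTFR5, calls numbered 0 without ΔTFR5 replicate 2, 1 without empty vector replicate 3, 2 without empty vector replicate 1 or 2 or ΔTFR5 replicate 1, 4 without ΔTFR4 replicate 2 and 14 without FL replicate 1.

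The genes with and without a TGATGNAA match can be set side by side. The 7 cytosolic genes with a match had a median log2 fold change of 0.57 with ΔTFR4, ranging from 0.26 to 0.78, and 4 of them were called as higher. The 9 cytosolic genes with a window and no match had a median of -0.02, ranging from -0.45 to 1.31, with 2 called as higher and 1 lower. The 2 were SARS and WARS, the largest differences of all, so the match did not mark the top of the range. LARS (0.69) and YARS (0.52), also called as higher with ΔTFR4, had no window and fall in neither set, as do DARS and VARS. With ΔTFR5 the medians were 0.47 with and -0.09 without a match. These are descriptions over few genes, with no test.

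The FL libraries differed among themselves in batch 2. No synthetase gene was called between FL and empty vector by edgeR (1.16% of all genes were, 1.03% as higher and 0.128% as lower), while 14 of 40 had an unadjusted p under 0.05 and DESeq2 called 6. SARS had the largest cytosolic estimate, 0.78 ± 0.19 (edgeR adjusted p = 0.0609), and CARS2, the mitochondrial cysteine enzyme, the largest mitochondrial one, -0.39 ± 0.17 (edgeR adjusted p = 0.165). The median log2 fold change was 0.27 for cytosolic and -0.18 for mitochondrial genes. Without FL replicate 3, edgeR called 16 genes, 11 cytosolic genes as higher and 2 as lower, 1 mitochondrial gene as higher and 2 as lower. The 1.16% above is the share of all genes in the fit with every library, and is no background for this count. The shares of all genes in that fit, by DESeq2 and by unadjusted p are not given here.

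FL replicate 3 also held less SLNCR. In GENCODE v29 the gene LINC00511 spans the SLNCR locus, and its batch 2 counts may also hold other transcripts. LINC00511 had 515, 498 and 444 CPM with ΔTFR4, 321, 376 and 192 with ΔTFR5, 728, 658 and 334 with FL, and 30.1, 29.1 and 27.9 with empty vector. FL replicate 1 stood apart in another way, with transcripts of 60% GC content lower than those of 40% by -0.92 on the log2 scale, where the other 11 libraries lay between -0.1 and 0.24. The part of either in the synthetase values was not tested. In batch 1, where SLNCR is listed as LINC00673, it had 191, 205 and 197 CPM with ΔTFR1, 207, 187 and 192 with ΔTFR2, 165, 240 and 220.0 with FL, and 18.9, 20.8 and 20.6 with empty vector.

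Each deletion was also set against FL. The same FL libraries were set against empty vector, so these values are not independent of those. Shares of all genes here are by edgeR, and none is given for DESeq2 or unadjusted p. With ΔTFR4, edgeR called 0 of the 40 genes (4.36% of all genes, 1.9% as higher and 2.47% as lower), 10 had an unadjusted p under 0.05, and DESeq2 called 2. The largest cytosolic estimate was 0.53 ± 0.19 for SARS (edgeR adjusted p = 0.12), and the largest scaffold one -0.43 ± 0.15 for EEF1E1 (0.108). With ΔTFR5, edgeR called 0 genes (1.38% of all genes, 0.826% as higher and 0.554% as lower), 6 had an unadjusted p under 0.05, and DESeq2 called 3. The largest estimates were -0.47 ± 0.17 for FARSB (edgeR adjusted p = 0.138), -0.63 ± 0.16 for MARS2, the mitochondrial methionine enzyme (0.0701), and -0.4 ± 0.15 for EEF1E1 (0.15). Left-out FL libraries moved these counts: the ΔTFR4 count was 5, 6 or 1 when FL replicate 1, 2 or 3 was dropped, and the ΔTFR5 count was 1 or 5 when FL replicate 1 or 3 was. Between ΔTFR5 and ΔTFR4, edgeR and DESeq2 each called 0 genes (0.453% of all genes by edgeR, 0.357% as higher and 0.0959% as lower), and 3 had an unadjusted p under 0.05. Of the 20 cytosolic genes, 18 had a negative estimate there, with a median of -0.12.

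The balance of the 2 sets was also taken within each library. It summarises the same genes and libraries as the fold changes and is no separate support for them. The mean log2 CPM of the 20 cytosolic genes minus that of the 17 mitochondrial genes was 3.2, 3.26 and 3.17 with ΔTFR4, 3.04, 3.1 and 3 with ΔTFR5, 3.15, 3.09 and 2.72 with FL, and 2.68, 2.64 and 2.62 with empty vector. Every ΔTFR4 and ΔTFR5 library and each FL library lay above the 3 empty vector libraries, FL replicate 3 by the least. The group values were 3.21 ± 0.05 with ΔTFR4, 3.05 ± 0.05 with ΔTFR5, 2.99 ± 0.23 with FL and 2.65 ± 0.03 with empty vector (SD, n = 3 each). In batch 1 they were 2.35 ± 0.03 with ΔTFR1, 2.35 ± 0.06 with ΔTFR2, 2.34 ± 0.01 with FL and 2.33 ± 0.02 with empty vector, and differed by less than the spread between replicates.

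**Figure D3:**
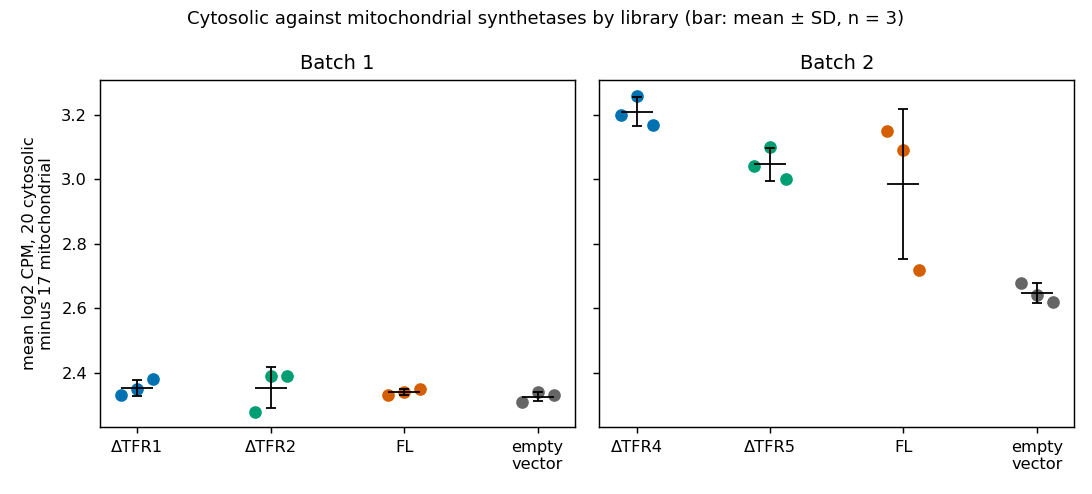
Mean log2 CPM of the 20 cytosolic genes minus that of the 17 mitochondrial genes (vertical axis) in each library of batch 1 (left) and batch 2 (right); points are libraries, bars the mean ± SD of 3. Batch 1 libraries lie between 2.28 and 2.39, and batch 2 libraries run from 2.62 with empty vector to 3.26 with ΔTFR4.

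Genes around the synthetases in the pathway were read from lists. Of 34 genes of ATF4 and the amino acid response, 22 were higher and 1 lower with ΔTFR4 than with empty vector. That is a share of 67.6% beside 23.9% of all genes called. The median log2 fold change was 0.92 beside 0.02 for all genes. The lowest adjusted p-values belonged to DDIT3 (3.33 ± 0.48, adjusted p = 0.00101), the stress factor CHOP, NUPR1 (2.33 ± 0.35, 0.00115), a stress-induced nuclear protein, and ALDH1L2 (1.93 ± 0.3, 0.00146), a mitochondrial folate enzyme, all by edgeR. ATF5, another factor of this response, was the gene that was lower (-0.77). With ΔTFR5, 16 were higher and 0 lower, a share of 47.1% beside 10.2% of all genes, with a median of 0.7. They were led by ALDH1L2 (1.76), DDIT3 (2.59) and CBS (1.34), which makes cystathionine. With FL in batch 2, 8 were higher and 0 lower, a share of 23.5% beside 1.16% of all genes. They were led by STC2 (1.95), TRIB3 (1.68) and CTH (1.49). In batch 1 the direction with FL was the other way: of the 33 genes of the list tested, 3 were higher and 9 lower than with empty vector, a share of 36.4% beside 22.7% of all genes, with a median of -0.14. STC2 (-0.28) and TRIB3 (-0.24), both higher with FL in batch 2, were called as lower there, as were PHGDH (-0.29) and SLC7A5 (-0.15), while the transporter SLC38A2 (0.24) and XPOT (0.19), the exporter of tRNA, were called as higher. The list was not tested between batches, and its batch 1 counts were read without a correction for the GC content of the transcripts.

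ASNS, asparagine synthetase, is a textbook CARE gene and no tRNA ligase. It had 380.2, 362 and 333 CPM with ΔTFR4, 293, 302 and 333 with ΔTFR5, 352, 358 and 164 with FL, and 174, 147 and 127 with empty vector. FL replicate 3 lay within the empty vector range for ASNS as it did for WARS. ATF4 itself was not called: its RNA averaged 399 ± 24.7 CPM with ΔTFR4 and 354 ± 10.7 CPM with empty vector (0.17 ± 0.12, edgeR adjusted p = 0.336). EIF2AK4, which encodes GCN2, differed by 0.04 ± 0.1 (edgeR adjusted p = 0.81).

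Of 14 genes of the eIF2 alpha kinases and the GCN2 pathway, 3 were higher and 2 lower with ΔTFR4, a share of 35.7% beside 23.9% of all genes. PPP1R15A, the stress-induced eIF2 alpha phosphatase subunit GADD34, was 2.43 ± 0.45 higher, IMPACT, an inhibitor of GCN2, 0.55 ± 0.13 higher, and EIF2AK3, which encodes PERK, lower by -0.51 ± 0.13 (edgeR adjusted p = 0.00311, 0.00863 and 0.0135). Of 7 cytosolic elongation factors, 0 were higher and 1 was lower, EIF5A by -0.65 ± 0.13 (edgeR adjusted p = 0.0051), a share of 14.3% beside 11.4% of all genes called as lower. In batch 1, FL against empty vector had 6 of these 7 lower, beside 11.3% of all genes, read without a correction for GC content. The lowest adjusted p-values there belonged to EEF1A2 (-0.38), EEF2 (-0.2) and EEF1D (-0.24), factors that deliver charged tRNA, move the ribosome and reload EEF1A with GTP.

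Among mitochondrial partners, 1 of 20 translation factors and tRNA modifiers was higher and 2 were lower with ΔTFR4, a share of 15% that lies under the 23.9% of all genes called. GTPBP3 (-0.67) and TRMU (-0.46), which modify the wobble base of mitochondrial tRNAs, were lower, and TRIT1 (0.58), a tRNA isopentenyltransferase, was higher. Of 20 genes of tRNA maturation and export, 1 was higher and 5 were lower, a share of 30% near the 23.9% of all genes. Among the lower ones were ELAC2 (-0.64), which trims the 3′ end of tRNA precursors, and RPP25 (-0.94), a subunit of RNase P and RNase MRP. None of the 8 tested genes for synthetase-like and trans-editing proteins was called. In batch 1, FL against empty vector had 2 higher and 4 lower of the 20 mitochondrial partners (30%) and 2 higher and 4 lower of 19 tRNA maturation genes (31.6%). It had 2 higher and 1 lower of the 14 GCN2 pathway genes (21.4%) and 0 of 6 synthetase-like genes, beside 22.7% of all genes. These counts too were read without a correction for GC content.

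Some marker genes of the lineage were called in the same comparisons. SOX10, a factor of the melanocyte lineage, averaged 55.5 ± 5.33 CPM with ΔTFR4, 53 ± 3.44 with ΔTFR5, 45.4 ± 2.52 with FL and 73.9 ± 4.63 with empty vector (SD, n = 3 each). It was lower by -0.41 ± 0.11 with ΔTFR4, -0.48 ± 0.11 with ΔTFR5 and -0.7 ± 0.11 with FL (edgeR adjusted p = 0.0182, 0.0187 and 0.0227). AXL, a receptor kinase of dedifferentiated melanoma, was higher by 0.55 ± 0.13 with ΔTFR4 (edgeR adjusted p = 0.0106). With ΔTFR4, 1 of 8 tested melanoma markers was higher, TYRP1, a pigment enzyme gene, at 1.55 against 0.464 CPM. The 2 lower ones were SOX10 and S100B (0.0124 against 0.294 CPM). That is a share of 37.5% beside 23.9% of all genes called. The median log2 fold change of the 8 was 0.18, opposite in sign to SOX10. Of the 3 dedifferentiated markers AXL was the 1 called (33.3%), and their median log2 fold change was -0.29, opposite in sign to AXL. VIM had 2907, 2526 and 3092 CPM with ΔTFR4 against 3321, 3304 and 3768 with empty vector. Of 5 tested markers of other cell types CDH1 was lower (0.769 against 3.22 CPM), a share of 20%, under that of all genes. With ΔTFR5, 2 of the 8 melanoma markers were higher and 1 lower (37.5% beside 10.2% of all genes). With FL, 0 were higher and 1 lower (12.5% beside 1.16%). Of the 3 dedifferentiated markers, 0 were called with ΔTFR5 or with FL. Each list is short. The part of these genes in the synthetase values was not tested.

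In batch 1 the synthetases differed little. Between FL and empty vector, 5 genes were higher and 3 lower, where 22.7% of all genes were called, 11.4% as higher and 11.3% as lower. The 8 of 40 called came to 20%, near that background. GARS (0.18), FARSB (0.21), RARS (0.15) and IARS2 (0.17) were among the higher ones, and MARS (-0.17), the methionine enzyme, was lower. FARSA had 195, 214 and 164 CPM with FL against 275, 241 and 239 with empty vector, a log2 fold change of -0.4 ± 0.08 (edgeR adjusted p = 0.00399). SARS2, the mitochondrial serine enzyme, had 33.8, 35.3 and 31.2 CPM with FL against 43.6, 42.9 and 39.8 with empty vector, a log2 fold change of -0.33 ± 0.07 (edgeR adjusted p = 0.00275). Of the scaffold genes, AIMP1 had the largest estimate, 0.17 ± 0.07 (edgeR adjusted p = 0.0736), which took the opposite sign, -0.07, with the GC trend removed. Neither SARS nor WARS was called.

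With ΔTFR1 against FL, 1 gene was higher and 5 lower, where 10.1% of all genes were called, 4.4% as higher and 5.66% as lower. FARSA was higher by 0.33 ± 0.08 (edgeR adjusted p = 0.0252), and FARSB (-0.24), GARS (-0.17), RARS (-0.17) and IARS2 (-0.16) were among the lower ones. SARS2 had the largest mitochondrial estimate at 0.23 ± 0.08 (edgeR adjusted p = 0.0504), and AIMP1 the largest scaffold one at -0.18 ± 0.07 (0.0938). With ΔTFR2 against FL, 2 genes were higher and 1 lower, where 10% of all genes were called, 4.86% as higher and 5.15% as lower: FARSA by 0.39 ± 0.08 (edgeR adjusted p = 0.0141), SARS2 by 0.3 ± 0.08 (0.0149) and RARS by -0.14 ± 0.05 (0.0484). EEF1E1 had the largest scaffold estimate there at -0.26 ± 0.25 (edgeR adjusted p = 0.525). By edgeR and DESeq2 alike, 0 synthetase genes were called between ΔTFR1 and empty vector (0.00699% of all genes by edgeR), between ΔTFR2 and empty vector (0.014%) and between the deletions (0%), and 2, 0 and 1 had an unadjusted p under 0.05.

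The batch 1 values went with GC content. Across the 40 genes, Spearman's rho between the GC content of the transcript and the log2 fold change of FL against empty vector was -0.74, a description over genes that share the libraries. Of 21 genes above 50% GC content, 2 had a positive log2 fold change, against 17 of the other 19. FARSA holds 60.3% and SARS2 61.9% GC, while RARS holds 41.4%. The trend from 40 to 60% GC over all genes was -0.21, -0.11 and -0.38 in the FL libraries and 0.22, 0.13 and 0.03 in the empty vector libraries. With that trend removed, 1 of the 8 calls between FL and empty vector remained, GARS at 0.18 (edgeR adjusted p = 0.0414). The estimates of SARS2 (-0.11), MARS (-0.08), FARSB (0.07), IARS2 (0.08) and RARS (0.01) kept their sign and lost the call. FARSA at -0.21 lay just past the threshold (edgeR adjusted p = 0.0519). It kept its call in the other 7 of 8 alternative models, which include the GC trend removed with a replicate block or with length. None of the 6 calls of ΔTFR1 against FL remained, where GARS had -0.18 (edgeR adjusted p = 0.0964) and FARSA 0.17 (0.164). None of the 3 calls of ΔTFR2 against FL remained either. FARSA had 0.24 there (edgeR adjusted p = 0.0569) and again kept its call in the other 7 of 8 alternative models. NARS, the asparagine enzyme, was called as higher with ΔTFR2 at 0.18 (edgeR adjusted p = 0.0475, against 0.12 and 0.0694 before the trend was removed). In batch 2, rho for ΔTFR4 against empty vector was -0.04, and with the trend removed 8 cytosolic genes were higher and 3 lower, and 0 mitochondrial genes higher and 7 lower.

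**Figure D4:**
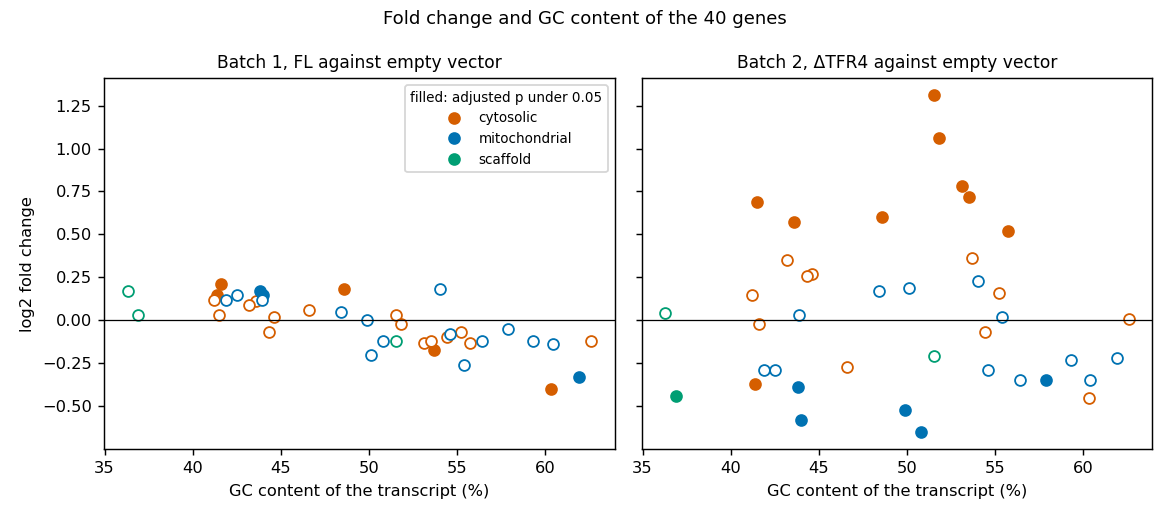
Log2 fold change (vertical axis) against the GC content of the transcript in percent (horizontal axis) for the 40 genes, in batch 1 for FL against empty vector (left) and in batch 2 for ΔTFR4 against empty vector (right); filled points passed an adjusted p of 0.05. The left panel slopes down with GC content (rho -0.74), and the right panel does not (rho -0.04).

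In batch 1 the counts also depended on the libraries. FL against empty vector gave 2 calls without empty vector replicate 1, 5 without empty vector replicate 2 and 3 without FL replicate 3. ΔTFR1 against FL gave 0 without ΔTFR1 replicate 1, 4 without ΔTFR1 replicate 2 or 3, and 9 or 1 when FL replicate 2 or 3 was dropped. ΔTFR2 against FL gave 0 without ΔTFR2 replicate 2, 9 or 1 when FL replicate 2 or 3 was dropped, and 2 without 1 of 5 other libraries (FL replicate 1, ΔTFR2 replicate 1 or 3, ΔTFR1 replicate 3 or empty vector replicate 2).

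HARS and HARS2, the cytosolic and mitochondrial histidine enzymes, are the 1 pair of synthetase genes that start head to head. Their RefSeq starts lie 85 bases apart on chromosome 5, at 140691370 on the minus strand and 140691455 on the plus strand of GRCh38.p14. Neither was called in any of the 12 comparisons. With ΔTFR4, HARS averaged 90.8 ± 2.78 CPM against 95.5 ± 6.8 with empty vector, and HARS2 averaged 40.6 ± 0.998 CPM against 35.7 ± 2.34 (SD, n = 3 each). The strand setting of the counting is not given in the sources used here, so reads of genes that overlap on opposite strands may be shared.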

How the data were processed

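The deposited batch 1 table holds unnormalised counts for each gene symbol. Batch 2 values are estimated counts from salmon per Ensembl gene, as deposited by the authors, and were rounded to whole numbers. STAR 2.7.3a, featureCounts of Subread 1.6.2, cutadapt 2.5, FastQC 0.11.5 and DESeq2 1.24.0 were used, per the submitters' processing notes. Salmon's version is not given in the sources used here. Each batch was fitted apart with edgeR 4.0.16 in R 4.3.3: filterByExpr (minimum count 10, minimum total 15), TMM, and the robust quasi-likelihood test in 1 model over 12 libraries, with Benjamini-Hochberg adjustment over the 14310 and 18763 genes tested. CPM values use TMM library sizes and log2 CPM a prior count of 2. The genes and lists were chosen with earlier results of these data known. Named genes are the called synthetase genes, the largest estimate per class in each main comparison, HARS with HARS2, the 3 called genes with the lowest adjusted p of a list, and ATF4 and EIF2AK4 whatever their test. ASNS, ATF5, the batch 1 values of NARS, TRIB3, PHGDH and SLC7A5, and the lineage markers given were chosen after their values were seen. The individual values of 1 gene are not reported here; it stays in the fits, counts and medians. GC content and length come from the GENCODE v29 transcript with the longest coding sequence, and 94.9% and 98% of the genes tested had a value. Alternatives were DESeq2 1.42.0, its size factors, no filter, the 2 groups alone, GC and length trends removed by loess, a replicate block and leaving out each library. No replicates were duplicates: replicate pairs differed by a chi-square per gene of at least 1.5 in batch 1 and 8.44 in batch 2. The fit was tested on simulated data. SD values reflect the spread between 3 libraries per group. SE values come from the model over the 12 libraries of a batch, so they also carry the spread of groups outside the comparison.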

Additional observations from a re-analysis of the deposited data

Results flagged for a closer look

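AARS, the alanine enzyme, took opposite directions in the 2 batches when FL was set against empty vector. In batch 2 it had 522, 716 and 462 CPM with FL against 446, 420 and 437 with empty vector, and every FL library lay above every empty vector library (log2 fold change 0.38 ± 0.14, edgeR adjusted p = 0.127). In batch 1 it had 271, 272 and 266 CPM with FL against 296, 292 and 289 with empty vector, and every FL library lay below (-0.12 ± 0.05, edgeR adjusted p = 0.0609). The batch 2 log2 fold change exceeded that of batch 1 by 0.5. AARS was picked by looking through all 40 genes for libraries on opposite sides. Of the 40, the FL libraries lay wholly above empty vector in 10 and below in 9 in batch 1, and in 6 and 4 in batch 2. AARS holds 53.5% GC, and its batch 1 value was read without the GC trend removed. Neither change passed its test, the tables were made in different ways, and the difference between batches was not tested.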

How the results depend on the processing

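The counts below are of synthetase genes called, and the medians are cytosolic minus mitochondrial log2 fold change. The shares of all genes called under these alternatives are not given here. For FL against empty vector in batch 1, the main count of 8 became 4 with the 2 groups alone, 14 with a replicate block, 1 with the GC trend removed, 3 with the block and the GC trend removed and 3 with GC and length trends removed, and its median difference of 0.05 became -0.03 under the 3 GC settings. For ΔTFR1 against FL, 6 became 1 with the 2 groups alone, 0 with the GC trend removed, 1 with the block as well and 0 with GC and length trends removed, and the median difference of 0.01 became 0.08. For ΔTFR2 against FL, 3 became 7 with a replicate block and 1 with the GC trend removed, and the median difference of -0.03 became 0.06 with the GC trend removed, 0.06 with the block as well and 0.07 with length too. For FL against empty vector in batch 2, 0 became 6 by DESeq2, 3 without the filter, 1 with a replicate block, 2 with the GC trend removed, 5 with the block as well and 2 with length too, and the median difference of 0.44 became 0.25, 0.24 and 0.25 under those GC settings. For ΔTFR4 against FL, 0 became 2 by DESeq2 and 3 under each GC setting, and the median difference of 0.22 became 0.36, 0.37 and 0.36. For ΔTFR5 against FL, 0 became 3 by DESeq2, 2 with the GC trend removed, 1 with the block as well and 2 with length too. With the 2 groups alone, ΔTFR4 against empty vector had 29, ΔTFR5 against empty vector 19 and ΔTFR5 against ΔTFR4 2. ΔTFR5 against empty vector had 13 with GC and length trends removed. The cause of these moves was not tested.

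Leaving out 1 library gave 2 to 11 calls for FL against empty vector in batch 1, 0 to 9 for ΔTFR1 against FL, 0 to 9 for ΔTFR2 against FL, 0 to 16 for FL against empty vector in batch 2, 0 to 6 for ΔTFR4 against FL, 0 to 5 for ΔTFR5 against FL, 8 to 23 for ΔTFR4 against empty vector and 0 to 14 for ΔTFR5 against empty vector. The median difference ran from -0.03 to 0.04 for ΔTFR1 against FL, from -0.05 to 0.06 for ΔTFR2 against FL and from 0.33 to 0.6 for FL against empty vector in batch 2. AIMP1 in batch 1 changed sign under the 3 GC settings, to -0.07 in each for FL against empty vector and to 0.01 in each for ΔTFR1 against FL, with adjusted p from 0.632 to 0.973. Equal replicate numbers were not treated as pairs in the main fit. Same-numbered libraries' deviations correlated at -0.13 to 0.18 in batch 1 and -0.14 to 0.2 in batch 2. Differently numbered ones correlated at -0.16 to 0.14 in batch 1 and -0.25 to 0.16 in batch 2. Whether the replicates were paired was not tested. With a replicate block, ΔTFR4 against empty vector had 15 and ΔTFR5 against empty vector 9. No synthetase symbol was repeated in the tables, so the alternative for repeated symbols gave no value.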
